A study of Mus musculus with 24 samples.

Results

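Sox1, Pax6, Nes, Map2 and Tubb3 are 5 genes used to recognise neuroectoderm, the embryonic tissue that forms the nervous system, and its neuronal descendants. They were taken by gene name from a table of read counts with 55401 entries, and followed through an endoderm differentiation of mouse embryonic stem cells with and without Setd3. The question was whether the knock-out cells, in which definitive endoderm genes were low, held higher levels of neural genes. Sox1 encodes a SoxB1 transcription factor that is among the earliest marks of committed neuroectoderm, and Pax6 encodes a paired-box homeodomain factor of neural progenitors. Nes encodes nestin, an intermediate filament protein of neural stem cells that is also made by mesenchymal and other progenitors. Map2 encodes a microtubule-associated protein of neuronal dendrites, and Tubb3 the beta-tubulin of neurons. In the embryo, neuroectoderm arises from epiblast cells that are shielded from Nodal and BMP signals, while high Nodal or Activin signalling directs epiblast towards endoderm.

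The cells were the CJ9 line, either a Setd3 knock-out made with CRISPR-Cas9 or wild-type. Setd3 encodes a SET-domain methyltransferase that acts on a histidine of actin. Groups were knock-out and wild-type at day 0, knock-out and wild-type at day 2, and likewise at days 3 and 4, with 3 libraries in each of 8 groups and 24 in all. All groups shared culture with LIF on inactivated embryonic fibroblasts, from which the cells were separated before 2 days in a serum-free medium for endoderm. At day 2 they were passaged as single cells into the same medium with Activin A, a ligand that engages the Nodal receptors, so days 3 and 4 carried this agent in both genotypes. The labels name no other agent. The knock-out was 1 line, so what belongs to the line and what belongs to the loss of Setd3 cannot be told apart. The labels do not say that the libraries of a group came from separate cultures, so p-values measure only the spread between these libraries, which may be technical.

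Polyadenylated RNA gave 18531390 to 24244958 counts per library. Setd3 itself was at 29.1 to 48.8 CPM in the 12 knock-out libraries and at 97.1 to 127 CPM in the 12 wild-type libraries, where CPM is a count scaled to a common library total, with TMM scaling of library sizes. Its log2 fold change lay between -1.40 and -2.05 over the 4 days, which matched the genotype labels. Transcripts of a disrupted gene can still be counted. Fibroblast genes, 18 of them and none at 0, marked feeder carry-over. They summed to 1467 to 3852 CPM in day 0 knock-out libraries and 1516 to 2659 CPM in day 0 wild-type libraries. From day 2 on the sums were 91.6 to 248 CPM in knock-out libraries and 76.6 to 178 CPM in wild-type libraries.

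The genes lie on 4 chromosomes of GRCm38, all on the plus strand. Pax6 (ENSMUSG00000027168) lies at chr2:105668900-105697364, Nes (ENSMUSG00000004891) at chr3:87971078-87980451 and Map2 (ENSMUSG00000015222) at chr1:66175273-66442583. Sox1 (ENSMUSG00000096014) lies at chr8:12395295-12400126 and Tubb3 (ENSMUSG00000062380) at chr8:123411424-123422015. The sequence before the gene start is shown for the 3 genes that had counts, because all 3 were higher in the knock-out at day 4 while their levels over time differed. It comes from RefSeq (GRCm38.p6), 5′ to 3′, and is cut to the bases that lie before the GENCODE M21 gene start, at chr2:105668646-105668895, chr3:87970843-87971077 and chr1:66175079-66175272. Capitals mark the motifs that were searched.
Pax6: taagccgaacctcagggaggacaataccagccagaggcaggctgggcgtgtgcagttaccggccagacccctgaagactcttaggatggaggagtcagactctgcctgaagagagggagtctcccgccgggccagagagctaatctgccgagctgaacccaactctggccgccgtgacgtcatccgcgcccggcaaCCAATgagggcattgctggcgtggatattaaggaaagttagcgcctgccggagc
Nes: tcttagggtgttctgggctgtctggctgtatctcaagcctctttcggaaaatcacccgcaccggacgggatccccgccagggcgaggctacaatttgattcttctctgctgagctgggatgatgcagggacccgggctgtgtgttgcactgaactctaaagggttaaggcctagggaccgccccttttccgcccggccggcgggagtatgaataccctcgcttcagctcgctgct
Map2: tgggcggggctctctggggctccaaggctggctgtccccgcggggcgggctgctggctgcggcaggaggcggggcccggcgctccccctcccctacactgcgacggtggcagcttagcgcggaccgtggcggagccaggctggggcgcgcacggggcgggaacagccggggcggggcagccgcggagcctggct
The motifs were the CAAT box CCAAT, the TCF/LEF forms CTTTGAA and CTTTGAT, the POU octamer ATGCAAAT and the FOX core TGTTTAC, read on both strands of the 250 bases before each RefSeq start. A CAAT box on the sense strand of Pax6 was the only match in these 3 windows. CCAAT is held by 33.9% of 32851 mouse promoter windows of this length, CTTTGAA by 4.46%, CTTTGAT by 3.21%, ATGCAAAT by 1.60% and TGTTTAC by 3.17%. A second RefSeq start of Pax6, inside the gene, held none in its window at chr2:105682213-105682462. GC content of the windows was 60.8% for the first and 47.6% for the second Pax6 start, 58.8% for Nes and 81.2% for Map2.

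Sox1 and Tubb3 could not be measured. Both were listed at 0 counts in all 24 libraries, wild-type and knock-out alike. Both lie wholly inside another gene on the same strand. Sox1 sits within Sox1ot, a transcript that runs through it at chr8:12385771-12436768, and Tubb3 within Gm20388, a read-through model at chr8:119910841-124345722. Sox1ot had 0 to 16 counts per library and Gm20388 547 to 894, and neither value is a measure of the gene inside it. Over both genotypes Sox1ot gave 126 counts in the 24 libraries.

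The same pattern held across the table. Among protein-coding genes with all exon bases inside another gene on the same strand, 458 of 605 (75.7%) were at 0 in every library. Among those inside a gene on the opposite strand only, 727 of 782 (93.0%) were at 0, against 2041 of 14031 (14.5%) of genes with no exon base inside another gene. Sox2, a core pluripotency factor of embryonic stem cells and like Sox1 a SoxB1 gene, was also listed at 0 throughout and lies wholly inside another gene. The same was true of the neural genes Pou3f3, Neurod1 and Nefl. A value of 0 for Sox1 or Tubb3 therefore says nothing on whether the cells made these RNAs. For Pax6, 1.28% of exon bases lie within the span of the antisense gene Pax6os1, but none lie in its exons. For Map2, 0.75% lie in exons of the antisense gene Gm10558, while Nes has none inside another gene. Whether counting used strand, or exons or whole spans, is not stated in any label or header. How reads over these stretches were assigned is therefore not known.

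**Figure D1:**
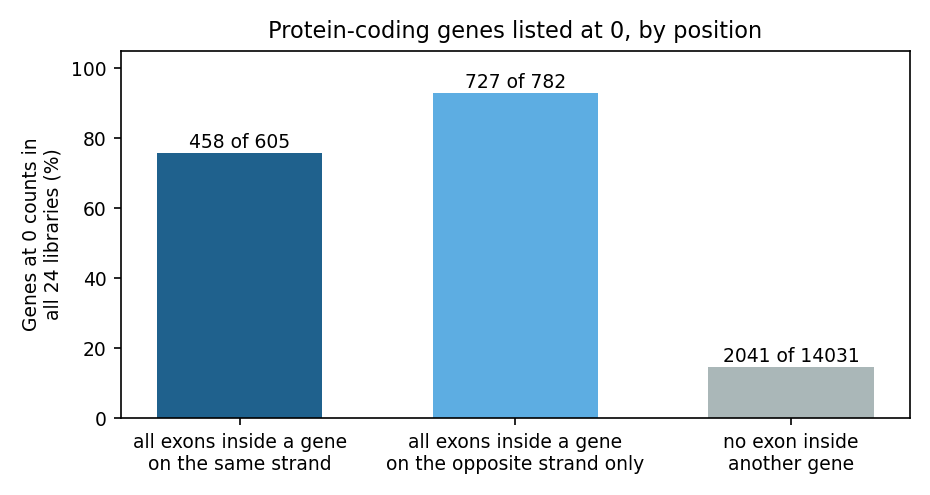
Share of protein-coding genes listed at 0 counts in all 24 libraries (vertical axis, percent), by whether their exons lie inside another gene on the same strand, inside one on the opposite strand only, or inside none. Genes inside another gene were at 0 in 75.7% and 93.0% of cases, against 14.5% of genes outside; Sox1 and Tubb3 belong to the first class.

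Among the 3 genes with counts, calls were only of lower levels in the knock-out at days 0 and 2 and only of higher levels at days 3 and 4. Pax6 was not called at days 0 and 2. At day 0 Nes and Map2 were lower in knock-out than in wild-type cells, at day 2 only Map2 was called lower, at day 3 Pax6 and Map2 were higher, and at day 4 all 3 were higher. Background rates of calls at an adjusted p under 0.05 by edgeR's quasi-likelihood test, over 17144 genes tested, were also larger at later days. At day 0, 2 of the 3 were called lower, where 10.5% of all tested genes were lower and 21.1% were called in either direction. At day 2, 1 of 3 was lower, against 15.7% lower and 32.0% in either direction. At day 3, 2 of 3 were higher, against 20.8% higher and 41.2% in either direction. At day 4, 3 of 3 were higher, against 26.3% higher and 54.0% in either direction. With that many genes called, the calls at day 4 do not by themselves set these 3 genes apart, and their sizes are given below. In bulk RNA, fewer cells of a type and less RNA per cell cannot be told apart.

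Nes was the most abundant of the 3. Per kilobase of exon, it stood at 61.8 CPM in knock-out and 17.9 CPM in wild-type cells at day 4, while Map2 stood at 1.74 CPM in knock-out and 0.541 CPM in wild-type cells and Pax6 at 0.0416 CPM in knock-out and 0.00813 CPM in wild-type cells. At day 0 the levels per kilobase were 4.92 CPM in knock-out and 9.19 CPM in wild-type cells for Nes. They were 0.802 CPM in knock-out and 1.26 CPM in wild-type cells for Map2, and 0.482 CPM in knock-out and 0.416 CPM in wild-type cells for Pax6. Of the 3 counted markers Nes had the highest and Pax6 the lowest level per kilobase in every group.

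Pax6, the progenitor transcription factor, fell in both genotypes as differentiation went on. It had 5.14, 7.04 and 4.74 CPM in day 0 knock-out libraries, against 5.43, 4.75 and 4.40 CPM in wild-type libraries. At day 2 it had 1.81, 1.83 and 3.39 CPM in knock-out libraries, against 4.37, 3.79 and 3.06 CPM in wild-type libraries. At both days the groups overlapped, through 1 knock-out library at day 2, and the differences did not pass the test, with log2 fold changes of 0.22 ± 0.26 (adjusted p = 0.598) and -0.67 ± 0.28 (adjusted p = 0.0730). Here and below ± after a log2 fold change is the fold change divided by the root of the F statistic, taken as positive, and adjusted p-values are Benjamini-Hochberg values of edgeR's quasi-likelihood test.

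At day 3 Pax6 had 0.974, 0.506 and 1.01 CPM in knock-out libraries, against 0.189, 0.266 and 0.134 CPM in wild-type libraries. At day 4 it had 0.408, 0.857 and 0.195 CPM in knock-out libraries, against 0.148, 0.0466 and 0.0910 CPM in wild-type libraries. Every knock-out library was above every wild-type library at both days, although all were far under the level of day 0. The log2 fold change was 2.08 ± 0.50 at day 3 (adjusted p = 0.00159) and 2.30 ± 0.64 at day 4 (adjusted p = 0.00361). These rest on few reads. At day 3 there were 57 counts in knock-out and 12 in wild-type libraries, a ratio of 4.35 with a 95% Clopper-Pearson interval of 2.31 to 8.90, and at day 4 there were 31 counts in knock-out and 6 in wild-type libraries, a ratio of 5.18 with an interval of 2.13 to 15.2. The intervals cover counting error only. Without the second knock-out library of day 4 the fold change was 1.64 on the log2 scale and was no longer called (adjusted p = 0.0543).

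Over time, wild-type Pax6 at day 3 was 4.24 ± 0.41 on the log2 scale under day 2 (a log2 fold change of -4.24, adjusted p = 1.29e-08), and the same step in knock-out cells was -1.49 ± 0.33 (adjusted p = 0.00129). In knock-out cells Pax6 also fell by 1.27 ± 0.28 between days 0 and 2 (adjusted p = 0.000335), where the wild-type log2 fold change of -0.37 ± 0.27 was not called (adjusted p = 0.225). In the last step neither genotype was called, with -0.77 ± 0.41 in knock-out cells and -0.99 ± 0.77 in wild-type cells. The order of Pax6 levels began with knock-out and wild-type day 0, then wild-type and knock-out day 2, then knock-out days 3 and 4 and wild-type days 3 and 4. In that order only the borders between days 0 and 2 and between days 2 and 3 separated neighbouring groups without overlap.

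Nes climbed in both genotypes and then parted. It had 33.7, 30.7 and 30.4 CPM in day 0 knock-out libraries, against 51.0, 74.0 and 51.9 CPM in wild-type libraries. At day 2 it had 138, 139.8 and 144 CPM in knock-out libraries, against 168, 159 and 149.6 CPM in wild-type libraries. At day 3 it had 294, 276 and 282 CPM in knock-out libraries, against 248, 268 and 256 CPM in wild-type libraries. The groups did not overlap at any of these days, with knock-out lower at days 0 and 2 and higher at day 3. Of these differences only that of day 0 was called in the main model. The share of all tested genes with such separate ranges is not given here. At day 4 it had 396, 387 and 405 CPM in knock-out libraries, against 74.1, 122 and 148 CPM in wild-type libraries. The lowest knock-out library was far above the highest wild-type library, and the wild-type libraries were the more spread.

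The log2 fold change of Nes was -0.90 ± 0.18 at day 0 (adjusted p = 0.00161) and 1.79 ± 0.17 at day 4 (adjusted p = 7.45e-08), or 3.45-fold higher in the knock-out. Days 2 and 3 gave -0.18 ± 0.17 (adjusted p = 0.457) and 0.14 ± 0.16 (adjusted p = 0.523). Those 2 differences were called when the model held only the groups compared, at the same small sizes. Between successive days wild-type Nes rose by 1.43 ± 0.17 to day 2 and 0.70 ± 0.17 to day 3, then fell by 1.16 ± 0.17 to day 4. Knock-out Nes rose by 2.15 ± 0.18 to day 2 and 1.02 ± 0.17 to day 3, and its last step, 0.48 ± 0.16, was not called (adjusted p = 0.0662). The day 4 difference thus stood beside a called fall in wild-type cells. In knock-out cells the mean went up from 284 CPM at day 3 to 396 CPM at day 4. These knock-out ranges did not overlap, although the step was not called in the main model.

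Map2, the dendritic microtubule-associated protein gene, moved opposite ways in the genotypes after day 2. It had 12.3, 13.0 and 14.2 CPM in day 0 knock-out libraries, against 16.0, 22.8 and 23.5 CPM in wild-type libraries. At day 2 it had 16.2, 16.8 and 16.9 CPM in knock-out libraries, against 32.6, 31.5 and 35.0 CPM in wild-type libraries. The knock-out libraries were all lower at both days, and the gap was wider at day 2 than at day 0. At day 3 it had 25.1, 25.3 and 26.9 CPM in knock-out libraries, against 12.2, 16.1 and 18.0 CPM in wild-type libraries. At day 4 it had 28.4, 32.1 and 25.5 CPM in knock-out libraries, against 7.28, 10.0 and 9.42 CPM in wild-type libraries. The order was now reversed, again with no overlap.

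The log2 fold changes of Map2 were -0.66 ± 0.14 on day 0 (adjusted p = 0.00115) and -0.99 ± 0.13 on day 2 (adjusted p = 4.69e-06). They turned to 0.74 ± 0.13 on day 3, with an adjusted p of 9.85e-05, and to 1.69 ± 0.14 on day 4, with an adjusted p of 4.17e-10. Wild-type Map2 rose by 0.67 ± 0.13 to day 2, then fell by 1.10 ± 0.13 to day 3 and by 0.79 ± 0.14 to day 4. Knock-out Map2 rose by 0.33 ± 0.14 to day 2 (adjusted p = 0.0433) and by 0.63 ± 0.13 to day 3, with 0.15 ± 0.13 in the last step, not called. The step to day 2 was not called with DESeq2's size factors or DESeq2's Wald test, nor in 5 of the 6 fits without 1 library. The highest Map2 group was thus wild-type day 2, whose range overlapped that of knock-out day 4, and the lowest was wild-type day 4, which stood apart from all others.

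**Figure D2:**
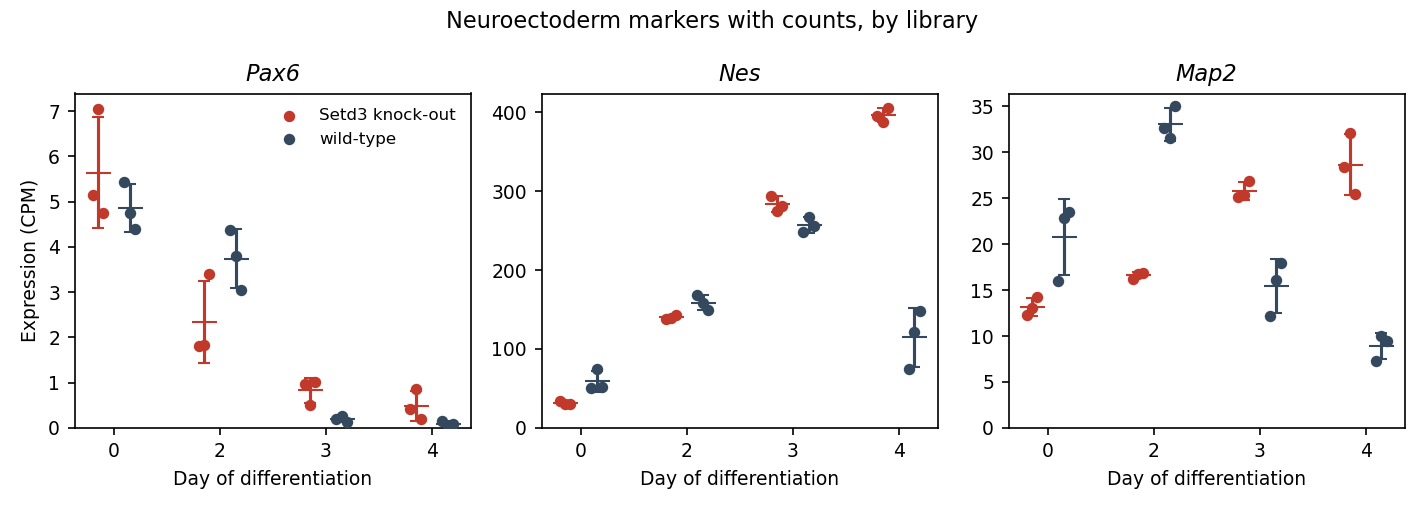
CPM of Pax6, Nes and Map2 (vertical axes, starting at 0) at days 0, 2, 3 and 4, with 3 libraries per group as points and the mean ± SD as bars, knock-out left of wild-type at each day. Pax6 fell in both genotypes, Nes reached 387 to 405 CPM in knock-out against 74.1 to 148 CPM in wild-type libraries at day 4, and Map2 crossed over between days 2 and 3.

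The difference between genotypes itself changed with time. From day 2 to day 3 it changed for 2 of the 3 genes, Map2 and Pax6, against 10.9% of all tested genes. Nes, at 0.32 ± 0.23 (adjusted p = 0.449), was called there only in the model of the groups compared (adjusted p = 0.00104). From day 3 to day 4 it changed for Nes and Map2, against 23.8%, and from day 0 to day 4 for all 3, against 36.7%. From day 0 to day 2 it was called for none, against 7.34%, with Nes at 0.72 ± 0.25 (unadjusted p = 0.00896, adjusted p = 0.0864) and Pax6 at -0.89 ± 0.38 (unadjusted p = 0.0286). DESeq2's Wald test called 1 of the 3 there. The difference of the day 4 and day 0 effects was 2.69 ± 0.25 for Nes (adjusted p = 1.84e-07), 2.34 ± 0.20 for Map2 (adjusted p = 2.76e-09) and 2.08 ± 0.70 for Pax6 (adjusted p = 0.0208). The last of these was lost without 1 library of day 4, with 1.42 without the second knock-out library (adjusted p = 0.146) and 1.77 without the second wild-type library (adjusted p = 0.0756).

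**Figure D3:**
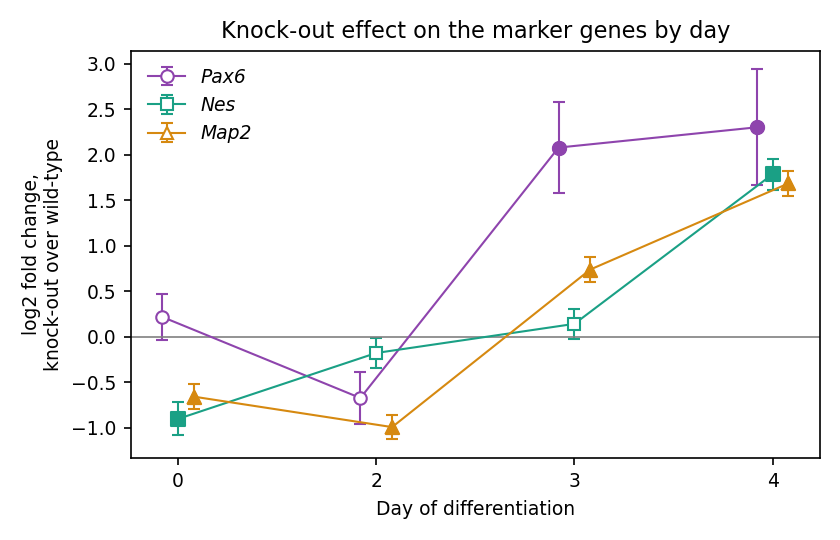
Log2 fold change of knock-out over wild-type (vertical axis) for Pax6, Nes and Map2 at days 0, 2, 3 and 4, with the error as defined in the text as bars and filled points where the adjusted p was under 0.05. All 3 lie above 0 at day 4, at 2.30, 1.79 and 1.69, whereas Nes and Map2 lie under 0 at day 0.

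In the successive steps of each genotype, the 3 genes were called as follows beside all tested genes. In wild-type cells 2 of 3 were called from day 0 to day 2 (63.8% of all tested genes), 3 of 3 to day 3 (42.4%) and 2 of 3 to day 4 (45.5%). In knock-out cells 3 of 3 were called from day 0 to day 2 (60.1%), 3 of 3 to day 3 (29.1%) and 0 of 3 to day 4 (11.6%). In that last step Nes alone was under 0.05 before adjustment in edgeR's quasi-likelihood test (unadjusted p = 0.00909, adjusted p = 0.0662), and DESeq2's Wald test called 1 of the markers.

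The genes whose levels ran most like each marker over the 24 libraries differed between the 3. Likeness was Pearson's r of log2 CPM among about 10107 genes with a highest group mean of at least 10 CPM, and is a description of libraries that share genotype and day. Tubb6, a widely expressed beta-tubulin, had r = 0.98 with Nes, as had Nfasc, a cell adhesion molecule of neurons, and Susd4. Clgn, a chaperone known from male germ cells, had r = 0.97 with Pax6, and Nefh, a neurofilament subunit, and Pramef12 had r = 0.95. Map2 had no gene as close, with Samd12 at r = 0.89 and Jmjd1c and Abat, a GABA-degrading enzyme, at 0.86. Between the markers r was -0.61 for Pax6 with Nes, 0.32 for Pax6 with Map2 and 0.47 for Nes with Map2, so they did not run as 1 group.

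A list of 18 further neural progenitor genes, 14 of them tested, was split at day 4. In knock-out cells 5 were higher and 2 lower than in wild-type cells, where 26.3% of all tested genes were higher and 27.6% lower, with a median log2 fold change of 0.99 beside -0.01 over all tested genes. Slc1a3, a glutamate transporter of radial glia, had 57.8 ± 2.1 CPM in knock-out and 20.1 ± 5.1 CPM in wild-type cells (1.52 ± 0.12, adjusted p = 5.53e-10). Sfrp2, a secreted Wnt modulator, had 34.4 ± 1.5 CPM in knock-out and 12.8 ± 3.3 CPM in wild-type cells (1.42 ± 0.13). Sox3, the third SoxB1 gene and the only one of them that could be counted, had 47.5 ± 3.0 CPM in knock-out and 10.5 ± 2.8 CPM in wild-type cells (2.17 ± 0.18, adjusted p = 2.72e-09). The errors after CPM are SD, n = 3 libraries each.

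Ptprz1 and Hes5 completed the higher genes, and Sox21 and Cdh2 were lower. Sox21, a SoxB2 factor of neural progenitors, had 0.774 ± 0.217 CPM in knock-out and 7.95 ± 0.12 CPM in wild-type cells (-3.35 ± 0.35, adjusted p = 1.65e-08). Cdh2 encodes N-cadherin, which is made by neural progenitors and by mesoderm and endoderm after gastrulation, and had 29.3 ± 5.6 CPM in knock-out and 312 ± 38 CPM in wild-type cells. With Cdh2 in it, the CPM summed over all 18 genes was lower in the knock-out, 316 to 332 CPM against 498 to 531 CPM in wild-type libraries, although the median fold change was positive. Cdh2, Ptprz1 and Hes5 were named at day 4 after their values were seen.

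At day 0 none of the 14 neural progenitor genes was higher and 3 were lower in the knock-out, namely Prom1, Sox3 and Sfrp2, where 10.6% of all tested genes were higher and 10.5% lower. Sox3 had 1.31 ± 0.56 CPM in knock-out and 4.83 ± 0.73 CPM in wild-type cells at that day (-1.87 ± 0.29, adjusted p = 8.59e-05). At day 2 none was higher and 4 were lower, Prom1, Fabp7, Ptprz1 and Cdh2, beside 16.2% higher and 15.7% lower. At day 3, 4 were higher and 3 lower, with a median of 0.25, beside 20.8% higher and 20.5% lower. Sox3 and Sfrp2, like Map2, were thus lower in the knock-out at day 0 and higher at day 4. Their difference between day 4 and day 0 effects was 4.04 ± 0.33 (adjusted p = 1.50e-08) and 2.02 ± 0.21 (adjusted p = 6.89e-08). None of the 3 tested SoxB genes, Sox3 among them, was called at day 2. CPM summed over 5 SoxB genes was 48.4 to 55.3 in knock-out and 53.8 to 71.1 in wild-type libraries at day 2. Sox1 and Sox2 entered this sum at 0, as they could not be measured. Over the 24 libraries Sox3 had 15619 counts, Sox21 997 and Sox14 158, so the sum was mostly Sox3 and is no family total. At day 4 the summed CPM was 46.5 to 52.1 in knock-out and 15.2 to 20.97 in wild-type libraries. The day 4 gap in this sum thus stood beside a fall in wild-type cells, while the knock-out ranges of the 2 days overlapped.

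Of 20 proneural and neuronal genes 14 were tested. None was higher and 3 were lower in the knock-out at day 0, none was higher and 6 lower at day 2, 2 were higher and 2 lower at day 3, and 7 were higher and 2 lower at day 4. The medians over these days were -0.35, -0.60, -0.01 and 0.94. Over all tested genes 10.6% were higher and 10.5% lower at day 0, 16.2% and 15.7% at day 2, 20.8% and 20.5% at day 3, and 26.3% and 27.6% at day 4, so the calls at day 3 were under that background in both directions. At day 4 Elavl3, a neuronal RNA-binding protein, had 45.8 ± 3.5 CPM in knock-out and 7.90 ± 1.70 CPM in wild-type cells (2.53 ± 0.21, adjusted p = 6.39e-09). Gap43, a growth cone protein, had 9.89 ± 1.5 CPM in knock-out and 1.93 ± 0.88 CPM in wild-type cells (2.35 ± 0.21, adjusted p = 9.24e-10). The neuronal intermediate filament Ina had 74.6 ± 1.3 CPM in knock-out and 35.6 ± 7.6 CPM in wild-type cells, a level that in the knock-out was close to the 71.4 ± 6.1 CPM of its own day 0.

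Stmn3 was the other example by lowest adjusted p at day 4 (1.89 ± 0.18), and Nefm, Rbfox3 and Neurod4 were also higher, while Mapt and Ncam1 were lower. Dcx, the doublecortin gene of migrating young neurons, had 0.928 ± 0.234 CPM in knock-out and 7.97 ± 0.61 CPM in wild-type cells at day 3 (-3.10 ± 0.32, adjusted p = 6.61e-08). At day 4 it had 1.13 ± 0.20 CPM in knock-out and 0.638 ± 0.173 CPM in wild-type cells, which was not called (adjusted p = 0.0820). The proneural genes Neurog1 and Neurog2, which start neuronal differentiation, had 22 and 21 counts over all 24 libraries together and were too low to test. The summed CPM of the 20 genes at day 4 was 362 to 381 in knock-out libraries, against 185 to 239.6 in wild-type libraries, without overlap. At day 0 the same sum was higher in both genotypes, at 462 to 471 CPM in knock-out and 471 to 575 CPM in wild-type libraries. These sums rest mostly on Stmn2 and Ina, with 90530 and 42480 counts over the 24 libraries, followed by Elavl3 with 15075. Neurod1 and Nefl entered at 0, so the sums do not describe the 20 genes as a set.

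Genes that mark regions of the early brain and spinal cord were mostly lower or not called. Of 21 listed and 16 tested, 3 were higher and 7 lower in the knock-out at day 4, with a median of -1.02, beside 26.3% higher and 27.6% lower over all tested genes. None was higher and 2 were lower at day 0, beside 10.6% higher and 10.5% lower over all tested genes. At day 2, 1 was higher and 3 lower, beside 16.2% higher and 15.7% lower. At day 3, 2 were higher and 6 lower, beside 20.8% higher and 20.5% lower. Otx2, a forebrain and midbrain factor that is also made by epiblast and anterior endoderm, had 279 ± 4 CPM in knock-out and 511 ± 61 CPM in wild-type cells at day 4 (-0.87 ± 0.13, adjusted p = 1.51e-05). Hesx1, an anterior factor of endoderm and forebrain, had 0.281 ± 0.122 CPM in knock-out and 4.40 ± 1.76 CPM in wild-type cells (-3.93 ± 0.35). Dmbx1 (-4.64 ± 0.41), Irx3 (-4.28 ± 0.49) and Six3 (-3.30 ± 0.44), which with Hesx1 had the lowest adjusted p-values of the list, were lower too. Among the higher ones were En2, Pax5 and Pax8, genes of the midbrain and hindbrain border, at group means of at most 0.551 CPM.

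Families of the markers were read beside them. Of 9 Pax genes 5 were tested, and at day 4 Pax5, Pax6 and Pax8 were higher and Pax7 lower in the knock-out, Pax7 with 0.284 ± 0.100 CPM in knock-out and 3.07 ± 0.06 CPM in wild-type cells. Of 11 intermediate filament genes 9 were tested, and at day 4 6 were higher and 2 lower, against 26.3% higher and 27.6% lower over all tested genes. Beside Nes and Ina the higher ones included Prph, peripherin of peripheral neurons (1.42 ± 0.18), and Nefm (2.10 ± 0.25). Vim, which encodes vimentin, was lower at 76.3 ± 0.7 CPM in knock-out against 127 ± 22 CPM in wild-type cells (-0.74 ± 0.23, adjusted p = 0.0106). Nes and Vim, which form filaments together, thus went opposite ways.

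Of 8 beta-tubulin genes 6 were tested, Tubb3 not among them. Tubb4a, a beta-tubulin of brain, had 46.4 ± 2.1 CPM in knock-out and 22.9 ± 1.0 CPM in wild-type cells at day 4 (1.02 ± 0.11, adjusted p = 3.49e-08), after 22.6 ± 1.1 CPM in knock-out and 51.9 ± 4.4 CPM in wild-type cells at day 2 (-1.20 ± 0.11, adjusted p = 2.21e-08). That is the crossing seen for Map2. Tubb6 (0.53 ± 0.06) and Tubb5 (0.17 ± 0.04) were also higher at day 4, and Tubb2b, which is abundant in developing neurons, was at 73.5 ± 3.4 CPM in knock-out and 73.7 ± 4.8 CPM in wild-type cells. Of 14 microtubule-associated protein genes 6 were higher and 4 lower at day 4, near the 27.6% lower over all tested genes and above the 26.3% higher. Map2 is itself in this list and among the higher genes, and Dcx and Mapt are also in the proneural and neuronal list. Map6, a stabiliser of neuronal microtubules, had 8.30 ± 0.79 CPM in knock-out and 1.32 ± 0.35 CPM in wild-type cells (2.65 ± 0.25, adjusted p = 5.78e-09). Stmn1 and Mapre3 were lower, at -0.60 ± 0.07 and -1.89 ± 0.21.

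**Figure D4:**
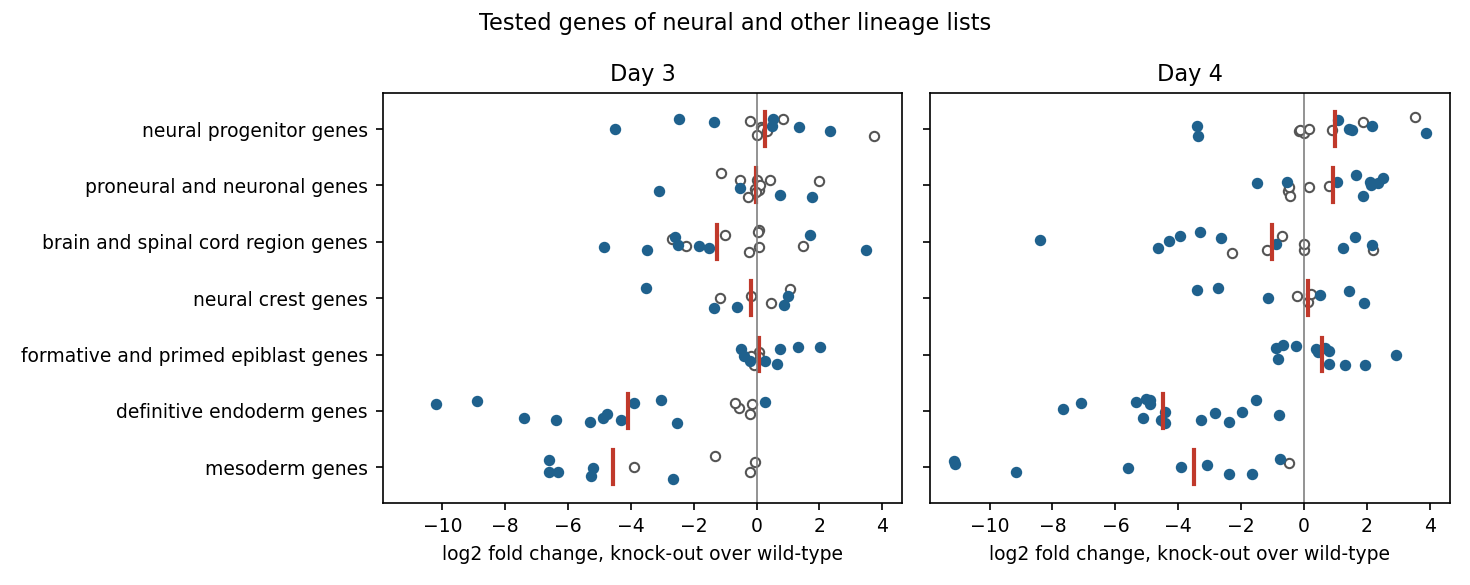
Log2 fold change of knock-out over wild-type (horizontal axes) for the tested genes of neural and other lineage lists, with 1 panel per day, filled points where the adjusted p was under 0.05 and a bar at each list's median. At day 4 the median was 0.99 for neural progenitor genes and 0.94 for proneural and neuronal genes, -1.02 for brain and spinal cord region genes and -4.48 for definitive endoderm genes.

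Other lineages gave the setting for these values. All 16 definitive endoderm genes were lower in the knock-out at day 4, with a median of -4.48, and Sox17 had 7.23 ± 3.81 CPM in knock-out and 217 ± 11 CPM in wild-type cells. Of 10 tested mesoderm genes 9 were lower, and of 4 tested surface ectoderm genes 3 were lower, among them Grhl3 and Gata3. Of 9 tested neural crest genes 3 were higher and 3 lower, which is near the background of 26.3% higher and 27.6% lower. Foxd3, which is also an epiblast gene, had 79.0 ± 0.8 CPM in knock-out and 20.95 ± 6.9 CPM in wild-type cells, and Msx1 had 2.98 ± 0.91 CPM in knock-out and 19.6 ± 1.5 CPM in wild-type cells.

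Several formative and primed epiblast genes are also used by neural progenitors. At day 4, 8 of 12 were higher and 4 lower in the knock-out, where 26.3% of all tested genes were higher and 27.6% lower. Pou3f1, a POU factor of primed epiblast and early neuroectoderm, had 112 ± 6 CPM in knock-out and 14.6 ± 5.4 CPM in wild-type cells (2.94 ± 0.23, adjusted p = 7.94e-09). Lin28b, Zic5 and Sall2, all among the 4 lowest adjusted p-values of the list, gave 0.79 ± 0.06, 0.80 ± 0.06 and 1.96 ± 0.15. Of the 14 naive pluripotency genes 11 were higher and 1 lower in the knock-out at day 2 (16.2% higher and 15.7% lower over all tested genes), and 5 were higher and 4 lower at day 4 (26.3% higher and 27.6% lower), with medians of 1.18 and -0.16. The part of epiblast genes in the values of the markers and of Sox3 was not tested.

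Feeder carry-over was read beside the same days. At day 0, none of the 18 fibroblast genes was called between genotypes by edgeR's quasi-likelihood test, and the summed levels overlapped. At day 4, 3 were higher and 2 lower in the knock-out, under the background of 26.3% higher and 27.6% lower, with summed levels of 91.6 to 101 CPM in knock-out and 76.6 to 85.7 CPM in wild-type libraries. Nes is also made by mesenchymal cells, and the part of such cells in its level was not tested. Genes on chromosome 8 were higher in the knock-out by a median of 0.20 to 0.24 on the log2 scale at the 4 days, over 845 tested genes. Of the 5 markers only Sox1 and Tubb3 lie on that chromosome, and of the other neural genes named here Irx3 does.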

How the data were processed

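The authors deposited a table of raw gene counts, in whole numbers, for every library. Trimmomatic, HISAT2 and the build GRCm38.p6 appear in the submitters' processing notes; their versions, the counting tool, annotation and strand setting are not stated there. GENCODE M21 held 55141 of the 55401 identifiers, supplied positions and filled 2090 blank gene names. Counts above 0 in any library were found for 29207 entries. Groups and replicate numbers came from the sample labels, and every deposited count column was used.

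Differences were tested with edgeR 4.0.16 (R 4.3.3), using a robust quasi-likelihood fit, TMM scaling, its low-count filter by group and 1 model for 24 libraries in 8 groups. This left 17144 genes, at a common coefficient of variation of 0.0906. The 14 comparisons set knock-out against wild-type at 4 days, followed 3 steps in each genotype and took 4 differences of the knock-out effect between days. Benjamini-Hochberg adjustment ran over all tested genes, with 0.05 as threshold. The test was tried on simulated counts, but the outcome is not given here and no result rests on it. Every pair of libraries in a group differed by more than counting noise, so no pair was merged as 1 library; this does not show separate cultures.

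The 5 markers and the 15 other gene lists were chosen with earlier results of these data known, so lists are described by counts and medians. Named genes were the markers, Setd3, genes overlapping a marker, up to 4 list members with the lowest adjusted p in a comparison, and the 3 genes most correlated with each marker (log2 CPM, prior count 2); other list members were named after their values were seen. Some genes that the rule takes are not reported here. Alternatives were DESeq2's size factors, no low-count filter, a fit of just the compared groups, a block for the replicate number, leaving out each library, the Wald test of DESeq2 1.42.0 and an offset for chromosome 8.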

Additional observations from a re-analysis of the deposited data

Results flagged for a closer look

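Differences of the knock-out effect between days passed edgeR's quasi-likelihood test for the marker genes in 7 cases, each tested as an interaction in the model over all 24 libraries. From day 2 to day 3 the log2 fold change of knock-out over wild-type grew by 1.73 for Map2 (adjusted p = 1.21e-06) and by 2.75 for Pax6 (adjusted p = 0.00206). From day 3 to day 4 it grew by 0.95 for Map2 (adjusted p = 0.000792) and by 1.64 for Nes (adjusted p = 5.58e-05). Over the whole course, day 4 minus day 0, it grew by 2.34 for Map2, 2.08 for Pax6 and 2.69 for Nes. Every one of the 7 was positive. The Map2 value from day 2 to day 3 rests on a change of side, called lower at day 2 and higher at day 3. For Pax6 the fold change was also negative at day 2 and positive at day 3. Only its day 3 side was called, as at day 2 the ranges overlapped (-0.67 in edgeR's quasi-likelihood test, adjusted p = 0.0730). Groups of 3 libraries were too small for a test of single outlying libraries.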

How the results depend on the processing

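The direction and call of each marker between genotypes at days 0 and 3 and of Nes and Map2 at day 4 were the same in every alternative, except Nes at day 3. Fitting only the groups compared called Nes at day 2 (-0.19, adjusted p = 0.00426) and day 3 (0.14, adjusted p = 0.0234) and Pax6 at day 2 (-0.68, adjusted p = 0.0278), so that 3 of 3 markers were called at day 2 in place of 1; the cause was not tested. That fit called 1587 genes at day 0 against 3611, and 3698 in the last knock-out step against 1986. It called 1 marker in that step and 1 for the day 2 minus day 0 effect, where DESeq2's Wald test also called 1 each. At day 4 its filter left out Pax6.

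Leaving out 1 library gave 1 to 2 markers called at day 2, a Pax6 log2 fold change of -1.03 to -0.51 at day 2 and 1.64 to 2.72 at day 4, 1062 to 1504 genes in the last knock-out step and 731 to 1645 for the day 2 minus day 0 effect. The Pax6 effect of day 4 minus day 3, not called, ranged from -0.44 to 0.64, with a change of sign.

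Deviations of same-numbered libraries from their group means correlated at -0.1499 to 0.165, highest in the wild-type step from day 3 to day 4. These values do not settle whether the replicate numbers pair the libraries. As a block the replicate numbers left every marker call between genotypes as it was, with 3 of 3 called at day 4 (Nes 1.80, Map2 1.70, Pax6 2.30). Depth limits Pax6 at days 3 and 4, with 1 to 23 counts per library. Neither scaling nor the chromosome 8 offset changed a marker call between genotypes.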
